A study of Mus musculus with 96 samples.

Results

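The 31 cells described here are fetal liver haematopoietic stem cells (HSCs) of C57BL/6 mouse embryos, divided by whether the library of the cell held reads of Procr. They were chosen by 3 criteria: a label that names the cell a fetal liver HSC from embryos of E12.5 or E14.5 (E gives the day of embryonic development), at least 2000 genes with a read, and then 1 or more Procr reads (with Procr) or 0 (without Procr). The series holds 96 single cells, of which 32 are liver HSCs, 16 from each day. At E12.5 there were 8 cells with Procr and 7 without, and 1 cell with 1011 genes was left out. At E14.5 there were 7 cells with Procr and 9 without, which gives 15 against 16 over both days. E12.5 liver cells were sorted as Ter119-Sca-1+c-kit+EPCR+, and E14.5 liver cells as Ter119-Sca-1+c-kit+CD48-CD150+, with no selection for EPCR at the later day. Day and sort differ together, so the days are described side by side.

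Procr encodes the endothelial protein C receptor (EPCR), a membrane glycoprotein that binds protein C and its activated form and presents them to the thrombomodulin-thrombin complex or to protease-activated receptors. It is expressed on endothelium and is widely used as a surface marker of HSCs in the bone marrow and fetal liver. In bone marrow, EPCR with bound activated protein C is known to keep stem cells adherent in their niche, and shedding of the receptor by ADAM17 goes with their mobilisation. The gene lies on chromosome 2 from 155751117 to 155755471 on the forward strand of mm10.

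The labels name no animal or litter, and each cell is 1 library. The cells of a day were therefore treated as 1 sample, so every contrast below is a description of these libraries, with no test and no count of changed genes. For each day the reads of the cells on a side were summed and expressed per 1000000 reads of that side (counts per 1000000, CPM), and the log2 ratio of with over without Procr was taken after 1 CPM was added. This scale understates differences between low values. A gene is called past 2-fold where that ratio is at least 1 in size. Intervals are exact 95% Poisson intervals for pooled CPM, and exact Clopper-Pearson intervals for shares of cells. They cover counting error only, and not the spread between animals. Procr itself was left out of every contrast.

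Procr reads marked the split and are given as a description. At E12.5 the 8 cells with Procr ranged from 27.01 to 396 CPM, with a median of 157.6 CPM. At E14.5 the 7 cells with Procr ranged from 0.519 to 819 CPM, with a median of 176.2 CPM. The lowest of these, E14.5 cell 4, had 1 Procr read, and the next lowest cell on either day, E12.5 cell 7, had 33. Cell 4 therefore sits at the edge of the rule, next to the 16 cells with 0 reads, and results that rest on it are given without it. On the other threshold, the kept cell with the fewest genes had 2887. At E12.5 all cells were sorted for the EPCR protein, yet 7 of the 15 kept cells had no Procr read. The split there divides cells by reads of the transcript and not by the surface antigen. On either day, without Procr means without a read, and whether those cells lacked the transcript was not tested.

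Cells with Procr also had more genes detected. At E12.5 the median was 5233 genes with Procr (2887 to 10509) and 3995 without (3203 to 4748). The E14.5 medians were 5477 (2924 to 6106) and 4713 (3776 to 5889). The ranges overlapped on both days, although 5 of the 8 E12.5 cells with Procr lay above every cell without. Total reads per cell ran from 626645 to 1926882. After every cell was thinned to 500000 reads the medians were 4888.5 against 3783 genes at E12.5 and 5165 against 4353 at E14.5. The difference was thus also there at equal depth. At E14.5 it leans on cell 4, the cell with 1 Procr read, which had the most genes of its day (6106, and 5780 thinned). Without cell 4 the E14.5 median with Procr is lower, midway between 4358 and 5477 genes, and midway between 4140 and 5165 thinned. Both midpoints still lie above the medians without Procr, 4713 and 4353 genes, but by less. One library stood apart: E12.5 cell 1, with Procr, held 10509 genes and reads of 20 of the 32 listed endothelial genes, where the other kept cells held 2 to 13. Its part in the results was not tested, and values without it are given for some of the results that it moves.

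**Figure D1:**
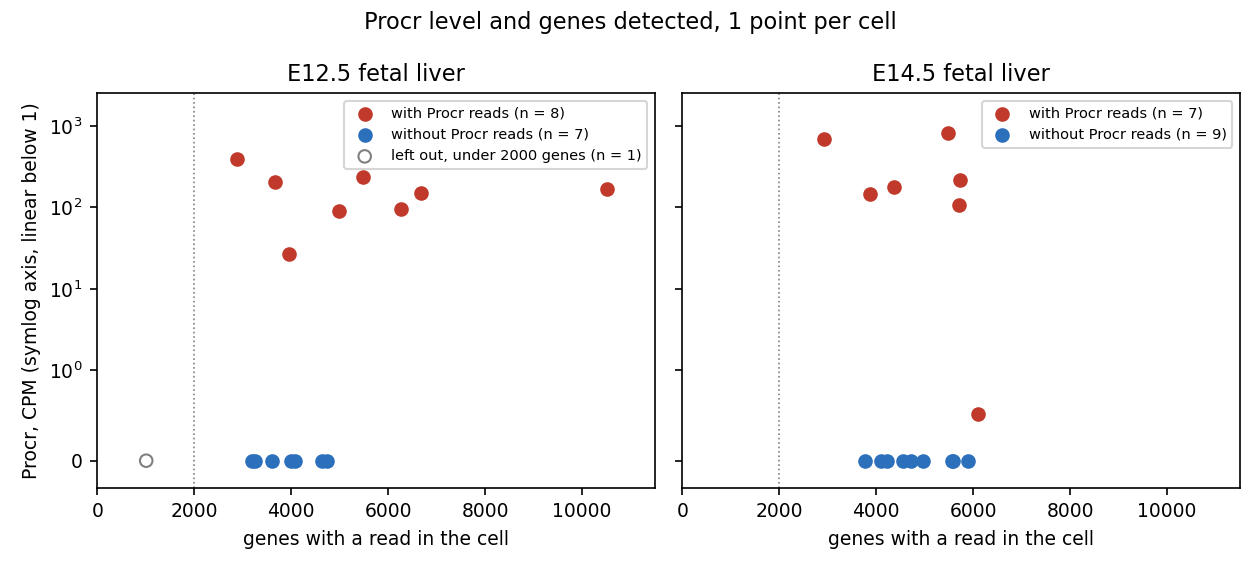
Procr level (CPM, symlog axis, linear below 1) against the number of genes with a read, 1 point per liver cell, at E12.5 (left) and E14.5 (right). Red points are cells with Procr reads, blue points cells without, the open point is the cell left out, and the dotted line is the minimum of 2000 genes; E14.5 cell 4 sits at 0.519 CPM, far below the other 6 red points of its day.

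A further feature of the E14.5 libraries touches the erythroid results. Haemoglobin genes made up 14.9%, 12.9% and 4.42% of the reads of E14.5 cells 3, 8 and 13, all with Procr, and 23.1% of cell 16, without Procr. In the other kept cells the share was at most 0.222%. Thus 3 of 7 cells with Procr and 1 of 9 without were rich in haemoglobin reads, and many E14.5 results are also given without these 4 wells.

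The label genes other than Procr were checked first. Ly6a (Sca-1), one of the sort antigens, had reads in 7 of 8 and 5 of 7 E12.5 cells and in 6 of 7 and 6 of 9 E14.5 cells, with and without Procr in that order. Pooled Ly6a was 188.2 CPM (180 to 196.5) with Procr against 286 CPM (274 to 298) without at E12.5, and 116 CPM (109 to 123) against 79.7 CPM (74.6 to 85.0) at E14.5. The log2 ratios, -0.60 and 0.53, differ in sign and both lie within 2-fold, and neither sign is fixed. Single cells left out moved the E12.5 value from -1.38 (cell 11) to 0.33 (cell 6), and the E14.5 value from -0.016 (cell 14) to 1.15 (cell 12).

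Kit, the receptor for stem cell factor, was 156.8 CPM (150 to 164.4) with Procr and 32.8 CPM (28.9 to 37.1) without at E12.5, a log2 ratio of 2.22. By cell, E12.5 Kit with Procr was 432, 268, 176.9, 170.9, 115, 2.33, 0 and 0 CPM, and without Procr it was 145.4, 116, 7.22, 2.16, 1.67, 1.22 and 0 CPM. Most of the difference is one of level, since 6 of 8 and 6 of 7 cells had a read, but only 2 of the 7 cells without Procr reached 10 CPM against 5 of 8 with it. Leaving out any E12.5 cell kept the ratio between 1.87 and 3.42. At E14.5 Kit was 183.5 CPM (174.7 to 192.6) against 124 CPM (117 to 130), a log2 ratio of 0.57, and all 9 cells without Procr had reads. Cd34, a sialomucin of early haematopoietic cells, was abundant on every side, at 678 CPM against 422 CPM at E12.5 (log2 ratio 0.68) and 612 CPM against 648 CPM at E14.5 (log2 ratio -0.08). Ptprc, the pan-leukocyte antigen CD45, had log2 ratios of 0.31 and -0.82, within 2-fold. Without E12.5 cell 5 the first was 1.28, and without E14.5 cell 4, the cell with 1 Procr read, the second was -1.97. With the haemoglobin-rich wells left out the second was -0.09.

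The SLAM genes Slamf1 and Cd48 encode the other antigens of the E14.5 sort. Slamf1 (CD150) was 511, 257, 188.3 and 38.9 CPM in cells 13, 8, 9 and 4 with Procr and 0 in the other 3, whereas none of the 9 cells without Procr had a read. In all, 4 of 7 cells with Procr had Slamf1 reads (57.1%, interval 18.4% to 90.1%) against 0 of 9 (interval 0% to 33.6%), and those intervals overlap. Pooled Slamf1 was 148.5 CPM (140.6 to 156.8) with Procr, at least 579-fold higher than a floor of 3 reads over the 9 cells without. The ratio at E14.5 was 7.22 on the log2 scale and stayed between 6.49 and 7.49 when any cell was left out. Without the 4 haemoglobin-rich wells, 2 of 4 cells and 0 of 8 had Slamf1 reads, with a ratio of 6.14. At E12.5, where CD150 was no part of the sort, 0 of 8 cells with Procr had Slamf1 reads, and the side without held 82.0 CPM in cell 4 and 1.77 CPM in cell 15. The E12.5 ratio of -4.21 moves to -0.41 without cell 4.

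Cd48, the antigen selected against at E14.5, still had reads in 6 of the 16 E14.5 cells. It was 55.6 and 23.4 CPM in 2 of 7 cells with Procr, and 533, 493, 228.8 and 116 CPM in 4 of 9 cells without. Pooled levels were 10.4 CPM (8.34 to 12.7) against 173.5 CPM (165.99 to 181.2), which is 16.8-fold higher without Procr (13.6 to 20.9). Both E14.5 cells with Procr that had Cd48 reads were haemoglobin-rich wells, and without those wells Cd48 was 0 of 4 against 4 of 8. At E12.5 Cd48 was 17.5 CPM in 2 of 8 cells against 56.1 CPM in 3 of 7, a log2 ratio of -1.63. Of the sort antigens with reads, Cd48 was the one past 2-fold lower with Procr on both days, and most cells of each side had none of its reads.

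Over all 11883 genes with at least 30 reads in the kept liver cells, ratios past 2-fold were common, which sets the background for every gene named here. At E12.5, 3893 genes (32.8%) were past 2-fold higher with Procr and 2366 (19.9%) past 2-fold lower. At E14.5, 3057 (25.7%) were higher and 2791 (23.5%) lower. With the 2 days' ratios averaged, 3391 genes (28.5%) were higher and 2117 (17.8%) lower. Counts within the gene lists below are to be read beside these shares. The median ratio over all genes was 0.13 at E12.5 and 0 at E14.5. Scaling by median-of-ratios size factors in place of total reads moved these medians to 0.32 and 0.09.

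The 2 days did not share a pattern across genes. Ratios at E12.5 and E14.5 had a Pearson r of -0.012 and a Spearman rho of -0.0008 across 11883 genes, which are not independent replicates. Past 2-fold in the same direction on both days were 1099 genes higher (9.25%) and 538 lower (4.53%), and 1689 (14.2%) were past it in opposite directions. Without E12.5 cell 1 the share higher on both days was 7.95%. Of the 3326 genes past 2-fold on both days, 49.2% had the same sign. Only 20.4% of the 1099 and 12.1% of the 538 stayed past 2-fold on both days whichever cell was omitted. The genes that follow were named by a fixed rule on level, number of cells and absence of a dominating cell, which 86 genes met in the higher and 22 in the lower direction on both days. Since they were picked by their ratios, those ratios are descriptions of the same cells that picked them.

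**Figure D2:**
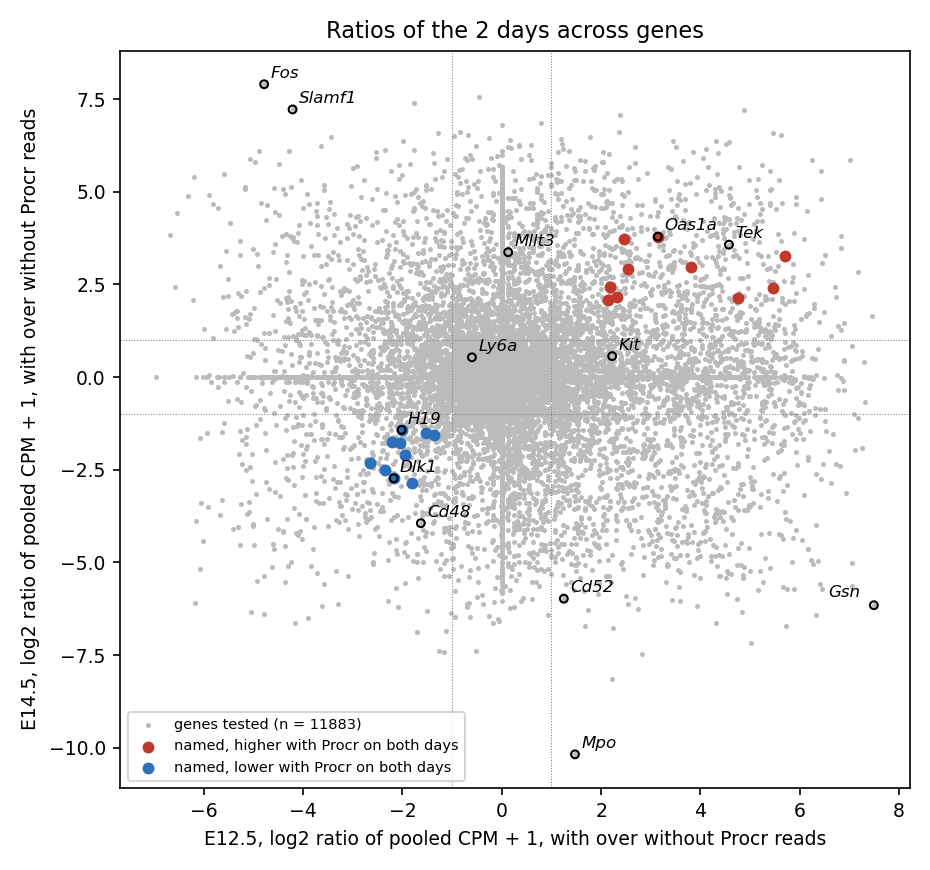
Log2 ratio of pooled CPM + 1, with over without Procr, at E12.5 (horizontal axis) and E14.5 (vertical axis), 1 grey point per gene (n = 11883), with dotted lines at 2-fold. Red and blue points are the genes named for both days and ringed points are genes described in the text; the cloud has no slope (r = -0.012), and Fos, Slamf1, Mpo and Gsn lie far out in opposite directions on the 2 days.

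At E14.5 the sides overlapped in Mpo through only 1 cell without Procr. The gene encodes myeloperoxidase, an enzyme of neutrophil and monocyte granules that is already transcribed in early myeloid progenitors. In the 9 E14.5 cells without Procr, Mpo was 3417, 2025, 1861, 1678, 1239, 501, 500, 231.4 and 0 CPM. In the 7 cells with Procr it was 1.07, 0.605, 0, 0, 0, 0 and 0 CPM. No cell with Procr reached 10 CPM, while 8 of 9 without did, and the 1 cell without Procr that had no Mpo read was cell 16, the haemoglobin-rich well. Pooled Mpo was 0.225 CPM, from 2 reads, against 1419 CPM (1398 to 1441), a ratio of 6308-fold with a counting interval of 1746 to 52090. Leaving out any cell kept the log2 ratio between -10.32 and -9.84, and without the 4 haemoglobin-rich wells it was -10.37, with Mpo in 8 of 8 cells without Procr.

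At E12.5 Mpo was found on both sides. There it was 920, 743, 542, 468 and 280 CPM in 5 of 8 cells with Procr and 484, 471, 233.2 and 63.8 CPM in 4 of 7 cells without. Pooled E12.5 Mpo was 401 CPM (390 to 413) against 143.8 CPM (135 to 152.4), a log2 ratio of 1.47, opposite in sign to E14.5. Both sides held cells with and without the transcript and their ranges overlapped, with 3 of 8 cells with Procr above the highest cell without. Whether the 2 days differ in this could not be tested with 1 sample a day.

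Other myeloid and lymphoid genes showed the same opposition of the days in part. Of 15 measured myeloid progenitor genes, 7 were past 2-fold higher with Procr and 0 lower at E12.5, while 1 was higher and 7 lower at E14.5. The list medians were 0.90 and -0.28, beside 0.13 and 0 over all genes. Of 11 lymphoid-primed genes, 5 were higher and 0 lower at E12.5, and 1 higher and 4 lower at E14.5, with medians of 0.79 and -0.26. Beside the counts of both lists, the shares over all genes were 32.8% higher and 19.9% lower at E12.5. At E14.5 they were 25.7% and 23.5%. Without the 4 haemoglobin-rich wells the E14.5 medians were past 2-fold lower, at -1.66 for the myeloid and -1.36 for the lymphoid list. Leaving out E12.5 cell 3 gave a lymphoid median of 0, and leaving out E14.5 cell 1 gave a myeloid median of 0 at that day. Summed myeloid progenitor levels overlapped: at E14.5 they ran from 1172 to 2929 CPM per cell with Procr and from 1194 to 6087 CPM without.

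Cd52, a small glycosylphosphatidylinositol-anchored glycoprotein of lymphocytes and other leukocytes, followed Mpo at E14.5. Without Procr it was 144.5, 115, 86.7, 63.8, 61.2, 48.1, 29.8, 0 and 0 CPM, and all 7 cells with Procr had 0 reads. Pooled Cd52 without Procr was 62.1 CPM (57.6 to 66.7), at least 183.9-fold higher than the floor of 3 reads over the 7 cells. The share of cells with a read was 77.8% (39.99% to 97.2%) against 0% (0% to 40.96%). At E12.5 Cd52 had reads in 3 of 8 and 1 of 7 cells, a log2 ratio of 1.25. That E12.5 value falls to 0.41 without cell 13.

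Tespa1, which encodes a signalling protein of thymocyte development, was 4.50 CPM in 1 of 7 E14.5 cells with Procr and 224.1 CPM in 6 of 9 without, a log2 ratio of -5.35. Cell 7 held 50.1% of the reads on the higher side, and without it the ratio was -4.56. Plaur, the urokinase receptor, was 0.113 CPM (1 read) against 115 CPM at E14.5, with reads in 1 of 7 and 3 of 9 cells. Its ratio was 1026-fold, with a counting interval of 183.8 to 40544. At E12.5 Plaur went the other way, at 105 CPM in 5 of 8 cells against 32.4 CPM in 1 of 7, a log2 ratio of 1.67.

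One E14.5 cell without Procr carried macrophage transcripts. Cell 7 had reads of 11 of the 19 listed macrophage genes with a summed level of 4750 CPM, where the other E14.5 cells had 1 to 4 genes and at most 1466 CPM. It held all C1qa and C1qc reads of the kept cells, 172.1 and 235 CPM, while Adgre1, which encodes F4/80, was at 0.657 CPM and Mrc1, Marco and Cd5l were at 0. The macrophage list had a median of -3.38 at E14.5, with 1 of 11 genes higher and 7 lower, and the median was 0 without cell 7. Shares over all genes at E14.5 were 25.7% higher and 23.5% lower. Hmox1, haem oxygenase 1, was 281 CPM in 4 of 9 cells without Procr and 0 with it, and cell 7 held 86.0% of those reads. Without cell 7 the Hmox1 ratio went from -8.14 to -5.53. Cell 7 also had the highest Mpo and Cd52 of its day, and without it their ratios were -9.84 and -5.66.

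Mllt3, Robo4 and Txnip were past 2-fold higher with Procr at E14.5. Mllt3, a chromatin reader known to support HSC maintenance, had reads in all 7 cells with Procr, at 295, 293, 219.2, 140, 43.6, 33.2 and 16.98 CPM. Among the 9 cells without Procr it was 139.1 CPM in cell 16 and 0 in the other 8. Pooled Mllt3 was 136 CPM (128 to 143.7) against 12.2 CPM (10.3 to 14.4), a log2 ratio of 3.37 that was 7.10 without cell 16. Without the haemoglobin-rich wells it had reads in 4 of 4 cells against 0 of 8. At E12.5 it was 37.4 CPM in 5 of 8 cells and 34.1 CPM in 4 of 7, a log2 ratio of 0.13 that was -1.24 without cell 7.

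Robo4, a guidance receptor of endothelium and HSCs, was 212.5, 134 and 20.8 CPM in 3 of 7 E14.5 cells with Procr and 0 in all 9 without, at least 279-fold higher. None of the 3 cells was haemoglobin-rich. Its E12.5 ratio was 0.18, from 2 of 8 and 1 of 7 cells, and ran from -1.98 without cell 3 to 3.30 without cell 6. Txnip, a thioredoxin-binding protein linked to stem cell quiescence, was 349 CPM (337 to 362) against 61.9 CPM (57.5 to 66.6) at E14.5, a log2 ratio of 2.48. It had reads in 7 of 7 cells with Procr and 6 of 9 without, and 6 of those 7 were at 181.1 CPM or above while cell 4 was at 0.519 CPM. Without cell 9, which held 53.9% of the reads, the ratio was 1.66. At E12.5 Txnip was 249 CPM against 125 CPM, a log2 ratio of 0.99 that was 0.12 without cell 7 and 1.35 without cell 10.

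**Figure D3:**
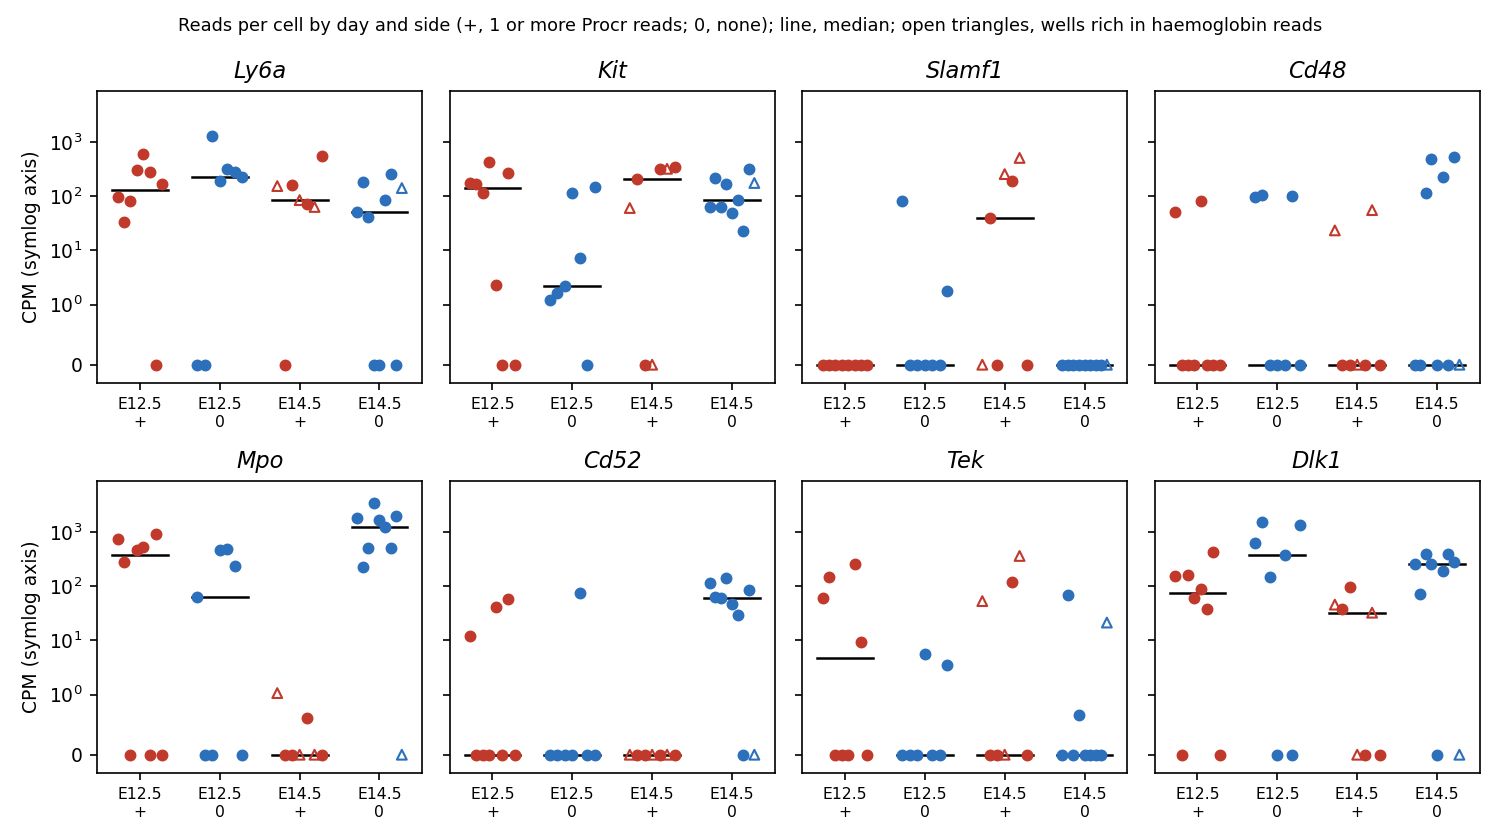
CPM per cell (symlog axis) of Ly6a, Kit, Slamf1, Cd48, Mpo, Cd52, Tek and Dlk1, with 1 point per cell, the sides with (+, red) and without (0, blue) Procr reads of each day, lines for medians and open triangles for the 4 haemoglobin-rich E14.5 wells. Mpo at E14.5 lies at or above 231.4 CPM in 8 of 9 cells without Procr and at or below 1.07 CPM in all 7 with it, while at E12.5 the sides overlap.

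Fos, an immediate-early transcription factor that also responds to cell handling, was opposite on the 2 days. At E14.5 it was 633, 475, 344, 336, 85.6, 0 and 0 CPM with Procr and 0.751, 0.697 and 0 in the other 7 without. The pooled levels were 279 CPM (268 to 291) against 0.171 CPM, from 2 reads, a ratio of 1634-fold with a counting interval of 452 to 13500. At E12.5 Fos was 5.36 CPM against 174.7 CPM, a log2 ratio of -4.79, with 73.5% of the reads of the higher side in cell 14, and the ratio was -3.20 without that cell. The list of cell cycle inhibitors and quiescence genes, which holds Fos and Txnip, had medians of -0.14 at E12.5 and 0.77 at E14.5. Of its 24 measured genes, 8 were past 2-fold higher and 2 lower at E14.5, against 6 higher and 8 lower at E12.5. Shares over all genes were 25.7% higher and 23.5% lower at E14.5, and 32.8% and 19.9% at E12.5. Leaving out any cell kept the E14.5 median between 0.62 and 0.89.

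HSC transcription factors, as a list of 45, had medians of -0.03 at E12.5 and 0.24 at E14.5. At E14.5, 16 were past 2-fold higher with Procr and 9 lower, and at E12.5 9 were higher and 11 lower. Over all genes the shares were 25.7% and 23.5% at E14.5, and 32.8% and 19.9% at E12.5. Without E14.5 cell 9 the median of that day was -0.09. Gata2, Hlf, Mecom and Tal1, 4 regulators of HSC formation and maintenance, are named here after their values were seen. Gata2 was 73.8 CPM in 7 of 7 cells against 14.4 CPM in 8 of 9 at E14.5, a log2 ratio of 2.28 that stayed between 2.11 and 3.08. At E12.5 the Gata2 ratio was -0.88, and 0.12 without cell 9. That of Hlf, too, was 0.02 at E12.5 without cell 9. The ratios of Hlf were -0.82 at E12.5 and 1.91 at E14.5, those of Mecom -2.38 and 1.56, and those of Tal1 -3.03 and 2.01. Without E14.5 cell 4 that of Mecom was 0.59, and without E14.5 cell 14 that of Tal1 was 0.64. All 4 were thus higher with Procr at E14.5 and lower at E12.5, where Gata2 and Hlf lay within 2-fold. They were picked from a list whose genes went both ways on each day, so they do not stand for the list. Cbfb, the partner subunit of RUNX1, was instead past 2-fold lower with Procr on both days, at 21.2 against 68.0 CPM (-1.64) and 15.8 against 58.7 CPM (-1.83). With E12.5 cell 15 omitted the first Cbfb ratio was -0.89, and with E14.5 cell 10 omitted the second was -0.98. With the haemoglobin-rich wells omitted the second was -1.33.

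Among the other genes the rule named at E14.5 were Trabd, Fbxo18 and Sept4 on the higher side, with log2 ratios of 7.08, 6.61 and 6.59, each in 4 of 7 cells with Procr. On the lower side Prpf6, a spliceosome component, was 0.113 CPM (1 read) against 187.2 CPM in 7 of 9 cells, and Ngly1, which removes N-glycans from misfolded proteins, 0.113 CPM (1 read) against 130 CPM in 7 of 9 cells. Zfp358 was 0 with Procr and 167.4 CPM in 6 of 9 cells without. None of these 6 genes is on the haematopoietic lists. Of all genes, 540 met the naming filters in the higher and 496 in the lower direction at E14.5.

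At E12.5 the rule named Gsn, Slc27a1, Idh1, Narfl and Vps41 on the higher side. Idh1, cytosolic isocitrate dehydrogenase, was 364, 215.9, 208.8, 199.2, 158.7, 151.6, 0 and 0 CPM with Procr, against 1.08 CPM in 1 of 7 cells without. Pooled Idh1 was 178.1 CPM (170 to 186.2) against 0.128 CPM, from 1 read, a ratio of 1390-fold with a counting interval of 249 to 54929. Vps41, a subunit of the lysosomal tethering complex HOPS, had reads in 7 of 8 cells with Procr (180 CPM) and 2 of 7 without (0.256 CPM, 2 reads), a log2 ratio of 7.17. Gsn, the actin-severing protein gelsolin, was 179.3 CPM in 5 of 8 cells and 0 in all 7 without, at least 466-fold higher. At E14.5 Idh1 had a ratio of -0.67, which ran from -1.304 without cell 13 to 0.25 without cell 7, and Gsn was 0 in all 7 cells against 70.3 CPM in 4 of 9. Narfl, which takes part in iron-sulphur protein assembly, was past 2-fold higher on both days, at 7.18 and 2.84. Slc27a1, a fatty acid transporter, was too, at 7.46 and 1.64.

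On the lower side at E12.5, Zfpm1 (FOG1), the cofactor of GATA1 in erythroid and megakaryocytic cells, was 156.1, 145.8, 79.4, 43.3, 0, 0 and 0 CPM without Procr and 5.61, 1.00 and 0 in the remaining 6 with it. The pooled values were 1.00 CPM (0.499 to 1.79) against 65.5 CPM (59.9 to 71.4), a log2 ratio of -5.05. At E14.5 the Zfpm1 ratio was -0.39, and -3.31 without the haemoglobin-rich wells, where 0 of 4 cells with Procr and 2 of 8 without had reads. Abhd14b, Ubqln4 and Cep19 were lower at E12.5 with ratios of -5.32, -5.08 and -3.72, and had ratios of 1.36, 1.56 and 1.11 at E14.5. Those E14.5 values came within 2-fold when 1 cell was left out, at -0.038 (cell 14), 0.35 (cell 9) and 0.69 (cell 5). Chia1 was lower at E12.5, at -4.49, and had no read in any kept E14.5 cell. Its E12.5 reads with Procr all came from cell 1. The naming filters were met by 859 genes higher and 301 lower at E12.5. Without E12.5 cell 1 the number of E12.5 genes past 2-fold higher was 3477 in place of 3893.

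Of the 10 genes named as higher with Procr on both days, Oas1a and Jak1 belong to interferon signalling. Oas1a, an oligoadenylate synthetase that is induced by interferon, was 315, 147.03, 98.4, 82.8, 58.0, 0, 0 and 0 CPM with Procr at E12.5, and 59.5 CPM in 1 of 7 cells without. At E14.5 it was 433, 359, 322, 164.4, 140, 60.7 and 15.1 CPM with Procr, so that all 7 cells had reads, and 170.8 and 32.8 CPM in 2 of 9 cells without. The log2 ratios were 3.14 and 3.79, and leaving out any cell kept them at or above 2.62 and 3.47. Without the haemoglobin-rich wells Oas1a had reads in 4 of 4 cells against 2 of 8, with a ratio of 3.10.

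Jak1, a kinase of cytokine and interferon receptors, was 216.2 CPM (207.6 to 225.1) against 47.3 CPM (42.6 to 52.4) at E12.5. Its E14.5 levels were 149.2 CPM (141.3 to 157.4) against 26.8 CPM (23.9 to 29.9). Its log2 ratios were 2.17 and 2.44. At E14.5 the 3 highest Jak1 cells, at 453, 420 and 163.9 CPM, were the haemoglobin-rich wells 13, 3 and 8, and without the 4 such wells the ratio was 0.20. The list of MHC class I and interferon genes, with 27 measured, had medians of 0.15 at E12.5 and 0.70 at E14.5. At E12.5, 6 were past 2-fold higher and 4 lower, and at E14.5 8 were higher and 2 lower. Shares over all genes were 32.8% higher and 19.9% lower at E12.5, and 25.7% and 23.5% at E14.5. The higher count of this list thus lies below the background at E12.5 and near it at E14.5. Leaving out any cell kept the E14.5 median between 0.35 and 0.81, and without the haemoglobin-rich wells it was 1.03.

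The other 8 genes named in that direction were Fdxacb1, Ip6k1, Hjurp, Uggt1, Slc25a36, Cdk11b, Blm and Mmgt2, with smaller-day ratios from 2.09 to 3.27. Hjurp, the chaperone that deposits the centromeric histone CENP-A, had the broadest detection. It was 164.7 CPM in 5 of 8 cells against 27.3 CPM in 4 of 7 at E12.5, and 244 CPM in 7 of 7 against 31.5 CPM in 8 of 9 at E14.5. Blm, the helicase lost in Bloom syndrome, had a ratio of 2.12 at E14.5 that was 0.64 without the haemoglobin-rich wells. Slc25a36, a mitochondrial pyrimidine nucleotide carrier, and Fdxacb1 had no read in any E12.5 cell without Procr. Fdxacb1 was at least 134-fold higher there, from 4 of 8 cells.

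Tek, the angiopoietin receptor TIE2 of endothelium and HSCs, was higher with Procr on both days, though many cells of the higher side had no read. At E12.5 it was 253, 148.7, 62.0 and 9.54 CPM in 4 of 8 cells with Procr, and 5.72 and 3.55 CPM in 2 of 7 without. At E14.5 it was 364, 119 and 53.3 CPM in 3 of 7 cells, and 70.2, 21.4 and 0.657 CPM in 3 of 9. The log2 ratios were 4.58 and 3.58. Without E14.5 cell 13 the later ratio was 2.31, and without the haemoglobin-rich wells it was 2.80. Of the 21 measured genes of the endothelial list, 9 were higher and 4 lower at E12.5, and 4 higher and 8 lower at E14.5, with medians of 0.77 and -0.07; the first ran from 0.14 to 1.32 when 1 cell was left out. The endothelial genes Kdr, Cldn5, Lyve1 and Stab2 were at 0, or at no more than 1.999 CPM in 1 cell, in all kept liver cells. Trim47, a ubiquitin ligase on the HSC-associated list, was 188.7 against 4.23 CPM (5.18) and 126 against 42.3 CPM (1.56), in 5 of 8 against 2 of 7 and 5 of 7 against 2 of 9 cells. The whole HSC-associated list, 45 measured genes, had medians of 0.00 and 0.31, and the later one was 0.15 without the haemoglobin-rich wells. On that list 7 genes were past 2-fold higher and 8 lower at E12.5, and 13 higher and 7 lower at E14.5. Beside these counts and those of the endothelial list, the shares over all genes were 32.8% higher and 19.9% lower at E12.5. At E14.5 they were 25.7% and 23.5%.

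**Figure D4:**
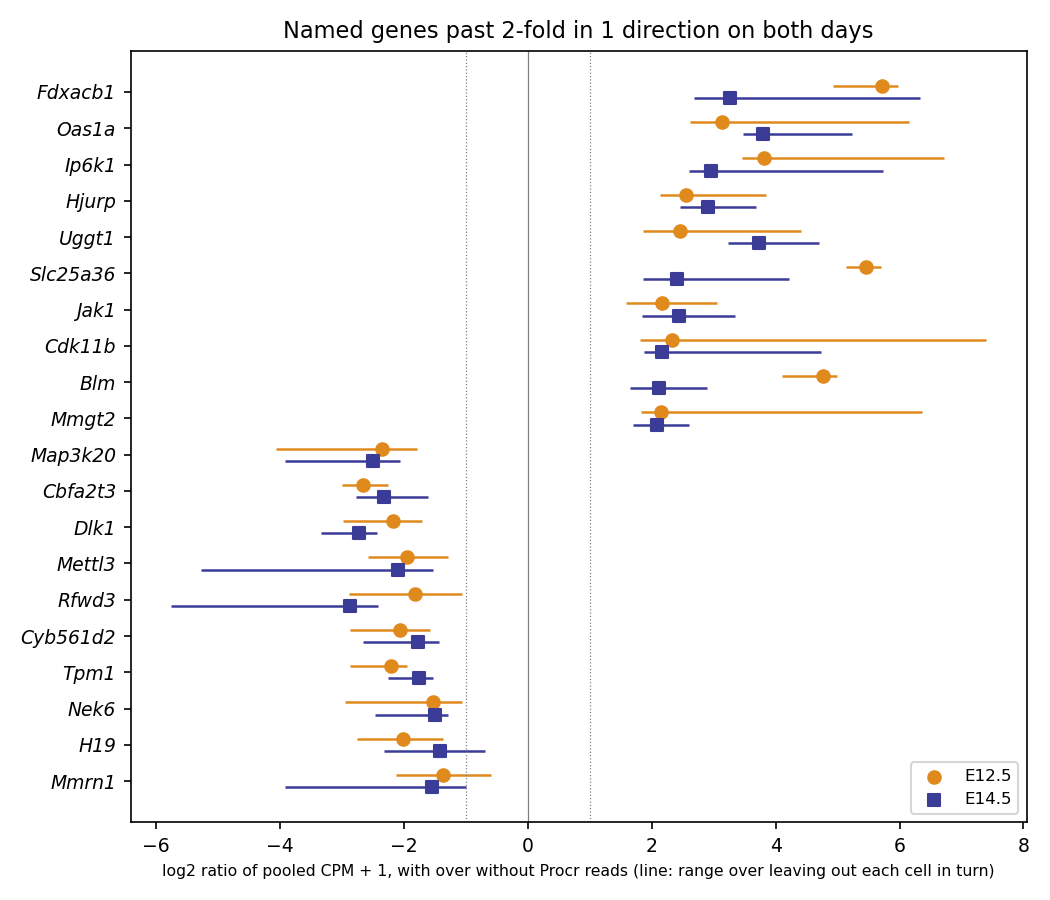
Log2 ratio of pooled CPM + 1, with over without Procr, for the 20 genes named as past 2-fold in 1 direction on both days, at E12.5 (circles) and E14.5 (squares). Lines span the values when single cells are left out and dotted lines mark 2-fold; the spans of H19 and Mmrn1 reach inside it.

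Among the 10 genes named as lower with Procr on both days were Dlk1 and H19, imprinted genes with high expression in the embryo. Dlk1, a membrane protein of the Notch ligand family that is also made by fetal hepatoblasts, was 432, 160.7, 151.9, 90.8, 60.6, 37.9, 0 and 0 CPM with Procr at E12.5, and 1537, 1332, 620, 380, 145.99, 0 and 0 CPM without. The E14.5 cells held 98.8, 45.8, 38.4, 32.5, 0, 0 and 0 CPM with Procr, and 398, 387, 279, 256, 255, 193.02, 71.8, 0 and 0 CPM without. At E14.5 6 of 9 cells without Procr lay above every cell with it. The ratios were -2.18 and -2.73, and no left-out cell brought either above -1.71. Without the haemoglobin-rich wells the E14.5 ratio was -2.69.

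H19, a non-coding RNA, was 71.3 CPM (66.4 to 76.4) against 292 CPM (280 to 304) at E12.5. Its E14.5 levels were 35.6 CPM (31.7 to 39.7) against 97.0 CPM (91.5 to 103). At E12.5 all 7 cells without Procr and 7 of 8 with it had reads, and 1368 CPM in cell 9 was the highest value. Its ratios of -2.02 and -1.42 were -1.37 once E12.5 cell 9 was omitted, and -0.70 once E14.5 cell 1 was. Without the haemoglobin-rich wells the E14.5 ratio of H19 was -0.85, within 2-fold. Of the 6 measured hepatocyte genes, 1 was higher and 1 lower at E12.5 and 2 higher and 2 lower at E14.5, with medians of -0.08 and 0.21. Shares over all genes were 32.8% higher and 19.9% lower at E12.5, and 25.7% and 23.5% at E14.5. Leaving out 1 cell, with the other wells kept, gave E14.5 hepatocyte medians from -0.79 (cell 8) to 0.84 (cell 7). Without the haemoglobin-rich wells that median was -1.92, past 2-fold lower. Afp and Apoa1 were at or below 2.999 CPM in every kept liver cell. The list of Lin28-axis and imprinted genes, 20 measured, had medians of 0.04 and 0.00. Its gene Igf2bp2, an RNA-binding protein, was instead higher with Procr, at 2.39 and 0.93, and the later value was 0.01 without the haemoglobin-rich wells.

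The remaining 8 were Map3k20, Cbfa2t3, Mettl3, Rfwd3, Cyb561d2, Tpm1, Nek6 and Mmrn1, with smaller-day ratios from -2.36 to -1.37. Without the haemoglobin-rich wells the E14.5 ratio of Nek6 was -0.94, and the others of this group stayed past 2-fold lower. Cbfa2t3 (ETO2), a corepressor of the TAL1 and GATA1 complexes, was 29.2 CPM (26.1 to 32.6) against 189.1 CPM (180 to 199.03) at E12.5. At E14.5 it was low on both sides, at 3.60 CPM (2.46 to 5.08) against 21.97 CPM (19.4 to 24.8). Mettl3, the methyltransferase that writes N6-methyladenosine on RNA, was 46.6 against 182.2 CPM and 17.7 against 78.6 CPM, in 4 of 8 against 4 of 7 and 3 of 7 against 6 of 9 cells. Tpm1, an actin-binding tropomyosin, was 27.6 against 131 CPM and 54.8 against 187.6 CPM, with reads in 8 of 9 E14.5 cells without Procr. Mmrn1, multimerin 1 of platelets and endothelium, was 55.5 against 144.9 CPM and 48.2 against 143.3 CPM. Its E12.5 ratio of -1.37 was -0.59 without cell 10.

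The receptor's own pathway gave medians of opposite sign on the 2 days. Of 22 listed genes around protein C in the table, 12 had at least 30 reads, and the genes of prothrombin, tissue factor and antithrombin were among those that did not. Of the 12, 7 were past 2-fold higher with Procr and 2 lower at E12.5, and 2 were higher and 4 lower at E14.5, with medians of 1.36 and -0.60. Shares over all genes were 32.8% higher and 19.9% lower at E12.5, and 25.7% and 23.5% at E14.5. Leaving out any cell kept the E12.5 median between 1.06 and 2.04, and without E14.5 cell 7 the later one was 0. Pros1, protein S, the cofactor of activated protein C, had a ratio of 5.20 at E12.5 from 2 of 8 cells against 0 of 7. Its E14.5 ratio rests on 1 cell of each side. Adam17, the protease that sheds EPCR, was 64.4 against 0.513 CPM at E12.5 (5.43), in 4 of 8 and 1 of 7 cells, with 73.0% of the reads in cell 16. At E14.5 Adam17 was 36.1 CPM in 1 of 7 cells against 93.1 CPM in 4 of 9 (-1.34), and 0 of 4 against 4 of 8 without the haemoglobin-rich wells. The E14.5 ratio was -0.29 without cell 12. Adam10, a related protease, had ratios of 2.84 and 0.59, the first of which was 1.15 without E12.5 cell 7 and the second 1.19 without the haemoglobin-rich wells.

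Niche adhesion and homing genes, 27 measured, had medians of 0.46 and -0.15, and the first was 0.14 without E12.5 cell 1. At E12.5 9 were past 2-fold higher and 2 lower, and at E14.5 7 were higher and 6 lower. Over all genes the shares were 32.8% higher and 19.9% lower at E12.5, and 25.7% and 23.5% at E14.5. The higher counts of this list thus lie near the background. Icam1, a ligand of leukocyte integrins, was opposite on the 2 days. It was 74.4 CPM in 4 of 8 cells against 0.128 CPM, 1 read, at E12.5, and 28.4 CPM in 2 of 7 against 92.2 CPM in 5 of 9 at E14.5 (log2 ratio -1.67). Itga9, an integrin subunit, was higher with Procr on both days (2.77 and 3.20) but had reads in only 2 of 8, 1 of 7, 2 of 7 and 1 of 9 cells. Jam3, a junctional adhesion molecule of HSCs and endothelium, was lower on both days. It was 6.91 CPM in 4 of 8 cells against 76.4 CPM in 4 of 7 at E12.5 (-3.29), and 48.4 CPM in 4 of 7 against 111 CPM in 6 of 9 at E14.5 (-1.18). Without E14.5 cell 12 the later Jam3 ratio was -0.82, and without the haemoglobin-rich wells it was -0.78.

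Cell cycle genes were listed by phase. Beside their counts, the shares over all genes were 32.8% higher and 19.9% lower at E12.5, and 25.7% and 23.5% at E14.5. DNA replication genes, 30 measured, had a median of -0.53 at E12.5, with 2 past 2-fold higher and 11 lower, and of 0.54 at E14.5, with 9 higher and 1 lower. The E12.5 median was 0.28 without cell 14, 0.18 with median-of-ratios scaling and -0.87 without cell 1, so its sign is not fixed. The E14.5 median was 0.05 without the haemoglobin-rich wells. Mitosis genes, 30 measured, had medians of 0.76, with 12 higher and 2 lower, and 0.29, with 8 higher and 3 lower. The higher mitosis count at E14.5 lies near the share over all genes. Without E14.5 cell 9 the later median was -0.06, and without the haemoglobin-rich wells it was 0.66. Kif11, a kinesin of the spindle, was past 2-fold higher on both days. It was 80.2 CPM in 4 of 8 cells against 7.94 CPM in 2 of 7, and 180 CPM in 5 of 7 against 26.7 CPM in 5 of 9, with ratios of 3.18 and 2.71. Mki67, the Ki-67 antigen of cycling cells, had ratios of 1.63 and 1.66, and 2.89 at E14.5 without the haemoglobin-rich wells. Rrm2, the small subunit of ribonucleotide reductase, had ratios of 3.95 and 1.72. Its E14.5 value was -0.07 without those wells, 3 of which stood on the side with Procr. Summed mitosis levels per cell overlapped widely, from 429 to 18776 CPM with Procr and from 1.44 to 16590 CPM without at E12.5.

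Erythroid genes, 31 measured, had medians of 0.13 at E12.5, with 10 past 2-fold higher and 3 lower, and 1.06 at E14.5, with 17 higher and 2 lower. Over all genes the shares were 32.8% higher and 19.9% lower at E12.5, and 25.7% and 23.5% at E14.5. The E12.5 erythroid median includes 11 genes with at most 3 reads on either side at that day, which passed the minimum through their E14.5 reads. With those genes left out, and genes at 0 on 1 side set to their bound, the E12.5 median was 1.42. It was 2.34 with the 4 haemoglobin-rich wells left out, where fewer genes pass the minimum. The E14.5 erythroid median follows the 4 wells: it was 5.57 without cell 16, 0.42 without cell 3 and 0.18 without all 4. Hba-a1, adult alpha globin, whose reads can be shared with its near-identical copy Hba-a2, was 71509, 70076 and 20942 CPM in cells 3, 8 and 13 with Procr and 108503 CPM in cell 16 without, and 1.39 to 151.6 CPM in the other E14.5 cells. At E12.5, where no well was haemoglobin-rich, Hba-a1 was 416 CPM (404 to 429) with Procr and 37.7 CPM (33.5 to 42.2) without, a log2 ratio of 3.43 that was 2.55 without cell 2. Reads of Hba-a1 were found in 8 of 8 and 6 of 7 E12.5 cells. Whether these low levels are expression or free RNA was not tested.

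Megakaryocyte genes, 15 measured, had medians of 1.00 at E12.5, with 8 past 2-fold higher and 3 lower, and 0.00 at E14.5, with 3 higher and 4 lower. The E12.5 median was 0.24 without cell 2. Shares over all genes were 32.8% higher and 19.9% lower at E12.5, and 25.7% and 23.5% at E14.5. Mesenchymal genes rested on 4 measured genes of 20, with medians of -0.45 and 0.69 (1.06 at E14.5 without the haemoglobin-rich wells, and -0.13 without cell 14), and Col1a1 and Col3a1 were at 0 in all kept liver cells. The macrophage list had a median of 0 at E12.5, with 4 of 11 genes higher and 2 lower. The same treatment of genes with few reads gave E14.5 medians of -0.71 for the myeloid, -0.51 for the endothelial and 0.65 for the megakaryocyte list, and an E12.5 median of 0.80 for the macrophage list. Without that treatment, no list median was past 2-fold on the same side of 0 on both days. With it, the erythroid median was past 2-fold higher with Procr on both days. The untreated E14.5 erythroid median was 0.18 without the 4 haemoglobin-rich wells.

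**Figure D5:**
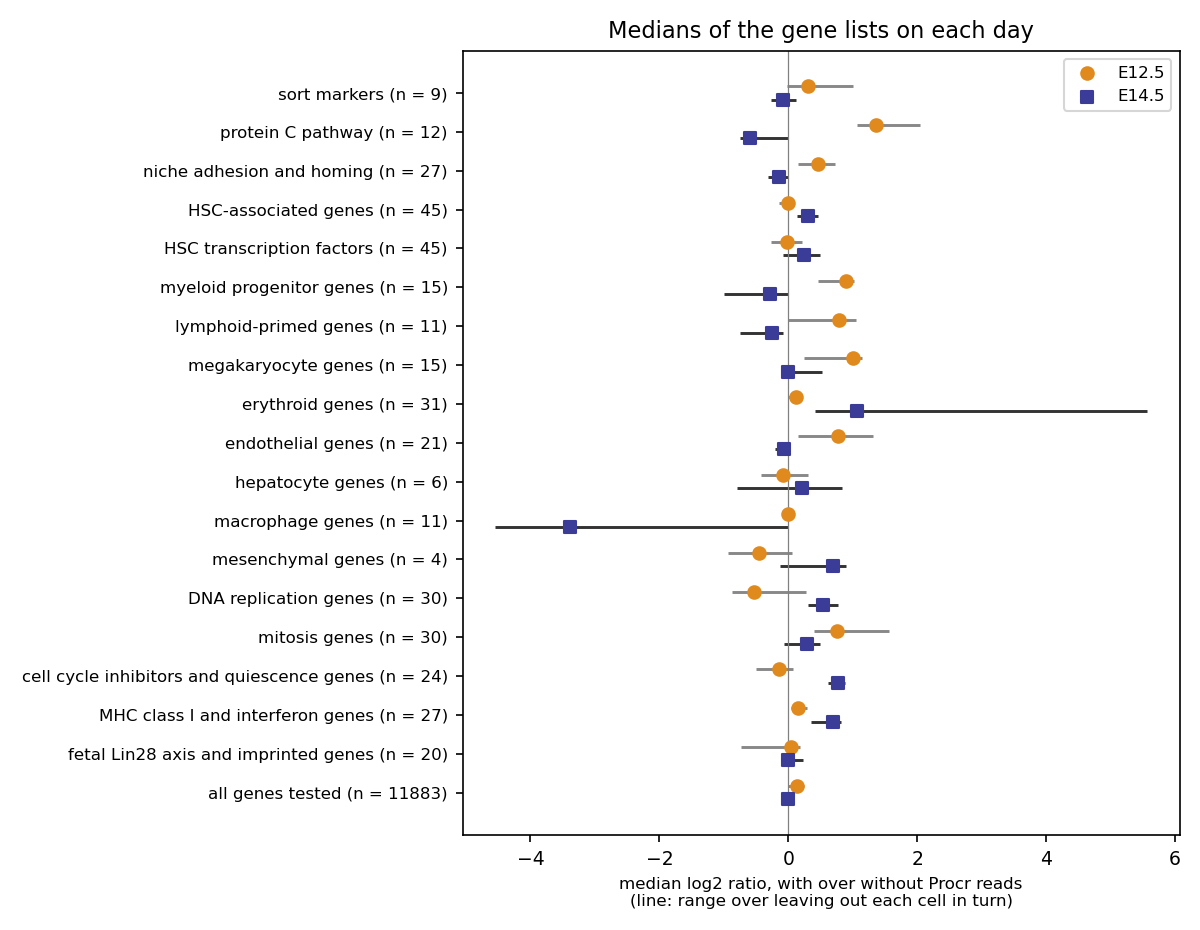
Median log2 ratio, with over without Procr, of each gene list and of all genes tested at E12.5 (circles) and E14.5 (squares), with lines for the range when single cells are left out and the number of measured genes in brackets. The protein C, myeloid and lymphoid lists lie above 0 at E12.5 and below 0 at E14.5, though the E14.5 lymphoid median is 0 with median-of-ratios scaling. The E14.5 lines of the erythroid and macrophage lists reach 5.57 and 0, the values without cell 16 and without cell 7.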

How the data were processed

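Single cells were sorted 1 per well into 96-well plates, and cDNA was made with a SMART-Seq kit and amplified by 12 PCR cycles, per the labels' protocols. The authors deposited whole-number read counts per gene, 1 column per cell; all columns were matched to samples by name, and 0 stayed unmapped. The submitters' processing notes name FastQC, Trimmomatic 0.36, STAR, HTSeq and mm10; the annotation and the strand setting are not given in the sources used here. No molecular identifiers are named, so counts are reads. Coordinates are from GENCODE M21.

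The 19949 rows held 113 with a repeated symbol, which were summed to 19836 genes. Genes needed 30 reads over the kept liver cells, which left 11883. Reads were summed per day and side, and both days together means the average of the 2 log2 ratios. Where a side had 0 reads, the fold is a bound against 3 reads over that side; with 1 to 3 reads it is a ratio with its counting interval. No cell was too shallow to thin to 500000 reads. Doublets were not called, as wells were sorted to hold 1 cell each, and whether any well held more than 1 cell was not tested. Side totals were 10998828 and 7804060 reads at E12.5 and 8887823 and 11697629 at E14.5, with and without Procr.

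Named genes were the sort markers, up to 6 per other list with the largest average ratio, and the 10 per direction on both days and 5 per direction on each day with the largest ratios. The last 2 groups needed a read in 50% of the higher side's cells and no cell with over 50% of its reads. Not every gene so named is described. Of the lists, Ly76, Proc, F2rl1, Plg, Alb, Elane and Cd163 were among the genes not used here. The members and lists were chosen with earlier results of these data known. Alternatives were another scaling, added CPM of 10, no or stricter filters, thinned reads, means per cell, Procr of at least 10 CPM, and leaving out each cell, the haemoglobin genes or the 4 haemoglobin-rich wells. Scripts were tested on simulated data and used Python 3.11.15, numpy 2.4.6, pandas 2.3.3, scipy 1.17.1 and matplotlib 3.10.9.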

Additional observations from a re-analysis of the deposited data

Results flagged for a closer look

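Within each day and side, genes with reads in most of the cells were examined for a cell far from the rest on the log2(CPM + 1) scale. In all, 15 of the groups examined (8.29%) held such a cell. The rule flags about 1 in 20 by chance only where values follow a normal distribution. Many cells flagged here had 0 reads, so the share cannot be set against that rate. No explanation was tested. On the side with Procr at E12.5 the low cells were cell 13 for Ly6a (0), cell 16 for Cd34 (7.21) and for Vim (0), and cell 11 for Jak1 (0). On the side with Procr at E14.5 they were cell 4 for Ly6a (0) and Txnip (0.60), cell 8 for Cd34 (0), cell 14 for Igf2bp2 (0) and Ccnb1 (0), and cell 13 for Mmgt2 (0) and Vim (4.54). Cell 4 is the cell with 1 Procr read, and cells 8 and 13 are haemoglobin-rich. On the side without Procr at E14.5, cell 16 was low for Mpo (0) and high for Hba-a1 (16.73) and Hba-a2 (13.81), and cell 2 was low for Tpm1 (0).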

How the results depend on the processing

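Each day is 1 sample, so animals and litters cannot be told apart from cells, and leaving out cells 1 at a time shows only how far a value rests on 1 library. No paired analysis was possible because the cells share no numbers across the sides. With 10 CPM added in place of 1, the percent of the 11883 tested genes past 2-fold was 19.1 higher at E12.5 (32.8 with 1 CPM), 16.3 higher and 12.7 lower at E14.5 (25.7 and 23.5), 11.6 higher and 6.08 lower over both days (28.5 and 17.8), and 3.71 higher and 1.90 lower in the same direction on both days (9.25 and 4.53). With the comparison limited to the 3869 genes read in at least 50% of the cells, a limit added after seeing the data, the percent of those was 15.9 higher and 11.6 lower at E12.5, 12.0 and 10.96 at E14.5, 10.03 and 5.12 over both days, 2.82 and 1.29 in the same direction on both days, and 4.55 in opposite directions (14.2 over all tested genes); fewer genes were tested there. The correlation of the days ran from -0.022 to 0.0067, and the share of the same sign from 47.5% to 51.0%, over all alternatives run, leave-one-out included.

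Of the ratios of single genes on a day past 2-fold, 31 came within 2-fold and 4 changed sign under some alternative other than leave-one-out. The 4 were Itga6 at E14.5 with thinned reads (-0.045), Rrm2 at E14.5 without the haemoglobin-rich wells (-0.073), and, with no minimum on genes detected, Hba-a2 (-0.088) and Hmox1 (-5.29) at E12.5; the cause was not tested. Leaving out each cell brought 32 within 2-fold and changed the sign of 9. Those ran, at E12.5, from -2.80 to 4.12 for Tespa1, -5.10 to 0.13 for Alas2, -2.06 to 0.37 for Irf1, -0.72 to 4.65 for Trabd and -2.08 to 4.82 for Zfp358, and, at E14.5, from -1.005 to 2.48 for Itga6, -1.62 to 0.17 for Vps41, -0.038 to 5.21 for Abhd14b and -2.99 to 4.33 for Pros1.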
